A study of Homo sapiens with 12 samples.

Results

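Oncofetal genes are genes that the fetal liver transcribes, that the adult liver keeps low, and that liver tumours often switch on again. The group described here was a list of 7 genes put under this name, AFP, GPC3, IGF2BP1, IGF2BP2, IGF2BP3, LIN28B and HMGA1, and all 7 were found among the 11548 genes of the expression table. Fetal and adult liver were not among the samples, so whether each gene meets this definition was not tested. RNA of 3 human hepatocellular carcinoma (HCC) cell lines, Hep3B, MHCC97H and Huh7, had been sequenced from polyA+ libraries after 4 treatments, with a single library for each of the 12 conditions. Cells were untreated, treated with AZD8055, an inhibitor of the mTOR kinase, with compound #57, an allosteric inhibitor of the phosphatase SHP2, or with both. AZD8055 was used at 100 nM, and compound #57 at 5 µM in the combination; its concentration when given alone was not given in the sources used here. MHCC97H cells were exposed for 24 h, the cells of the other lines for 48 h, so that cell line and exposure time cannot be told apart. All cells were labelled as wild type, and each line is 1 tumour cell line grown in culture.

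AFP encodes alpha-fetoprotein, the main plasma protein of the fetus and a serum marker of HCC. GPC3 encodes glypican-3, a heparan sulfate proteoglycan that is anchored to the cell surface and is used as a tissue marker of HCC. IGF2BP1, IGF2BP2 and IGF2BP3 are cytoplasmic proteins that bind and stabilise mRNAs, among them IGF2 and MYC mRNA, and that read N6-methyladenosine (m6A). LIN28B blocks the maturation of the let-7 microRNAs, and HMGA1 is a chromatin protein that bends AT-rich DNA. The let-7 family represses LIN28B, the IGF2BPs and the HMGA genes through sites in their 3′UTRs, and LIN28B in turn lowers let-7, which is why these genes are often described together.

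On hg38 (GENCODE release 44), AFP lies on the plus strand of chromosome 4 from 73431138 to 73456174, GPC3 on the minus strand of chromosome X from 133535745 to 133987100, and IGF2BP1 on the plus strand of chromosome 17 from 48997385 to 49056145. IGF2BP2 lies on the minus strand of chromosome 3 from 185643130 to 185825042 and IGF2BP3 on the minus strand of chromosome 7 from 23310209 to 23470491. LIN28B (104936616 to 105083332) and HMGA1 (34236873 to 34246231) both lie on the plus strand of chromosome 6.

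The let-7 sequences are shown because 5 of the genes carry matches to them. The 9 mature let-7 names of the RefSeq table (GRCh38.p14), miR-98 included, all had the seed GAGGUAG at bases 2 to 8, which is written in capitals.

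let-7a-5p: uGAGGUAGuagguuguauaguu

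let-7g-5p: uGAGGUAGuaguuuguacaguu

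miR-98-5p: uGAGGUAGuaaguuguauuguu

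The match of this seed in mRNA is CTACCTC. On the mRNA strand of the canonical 3′UTR (GENCODE 44), LIN28B had 4 such matches in 4549 bases and IGF2BP1 had 4 in 6701 bases. IGF2BP2, IGF2BP3 and HMGA1 had 1 each, in 2401, 2153 and 1347 bases. AFP (554 bases) and GPC3 (379 bases) had 0. Over the 10321 genes of the table with such a 3′UTR, 11.6% had at least 1 match. Among 3′UTRs within 20% of the same length, 4 or more matches were found in 0.191% of 1046 for LIN28B and in 0.593% of 506 for IGF2BP1. The match nearest to the stop codon in each of the 5 genes is printed in the direction of the mRNA, with CTACCTC in capitals. A match describes the sequence alone, and let-7 itself was not measured in these libraries.

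LIN28B, chr6:105078813-105078834, plus strand: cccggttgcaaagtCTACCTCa

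IGF2BP1, chr17:49051062-49051083, plus strand: gtgtgcgaagtaaaCTACCTCa

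IGF2BP2, chr3:185644220-185644241, minus strand: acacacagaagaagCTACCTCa

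IGF2BP3, chr7:23311795-23311816, minus strand: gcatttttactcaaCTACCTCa

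HMGA1, chr6:34245830-34245851, plus strand: cctctgttcacaaaCTACCTCt

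Each library held between 10667343 and 15968317 reads, and the table accounted for 98.6% to 99.2% of them. Scaled reads are reads per 10000000 reads of the library, a level is the log2 of scaled reads plus 1, and intervals around reads are 95% Clopper-Pearson intervals, which cover counting error only. The hepatocyte label was checked with 10 marker genes. Their summed level was 238834 to 621946 scaled reads in Hep3B and 138691 to 232562 in Huh7, but 1783 to 4093 in MHCC97H, where at most 1 of the 10 markers was at 3 reads or fewer. All 10 markers were lower in MHCC97H than in either other line by limma. A panel of 7 mesenchymal markers summed to 25114 to 62262 scaled reads in Hep3B, 82944 to 171632 in MHCC97H and 66424 to 142171 in Huh7. FN1 had the most reads of the 7 in every library, and the other markers did not all follow this order. VIM had 63 to 116 reads in MHCC97H against 5180 to 28885 in the other lines. COL1A1 and COL1A2 also had the fewest reads in MHCC97H, while FN1 and ZEB1 had more there than in Hep3B. Of 9 blood and endothelial markers, 2 were in the table, with a sum of at most 7568 scaled reads.

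AFP, GPC3 and LIN28B had the widest differences between the cell lines among the 7 genes. AFP, GPC3 and LIN28B had at least 976 reads in every Huh7 and Hep3B library, whereas in MHCC97H GPC3 and LIN28B had at most 6 reads and AFP 59 to 89. By the distance between the highest and the lowest line mean, AFP ranked 9 among the 11548 genes, with a distance of 11.91 on the log2 scale. The distances of GPC3 and LIN28B depend on the 1 added before the logarithm and are not ranked here. The IGF2BP genes and HMGA1 were expressed in all 3 lines, and their line means lay at most 2.20 apart. For IGF2BP3 the line means lay 0.97 apart, less than the 1.19 between untreated and combination in Hep3B. In these bulk libraries, fewer cells that express a gene and less RNA per cell cannot be told apart.

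**Figure D1:**
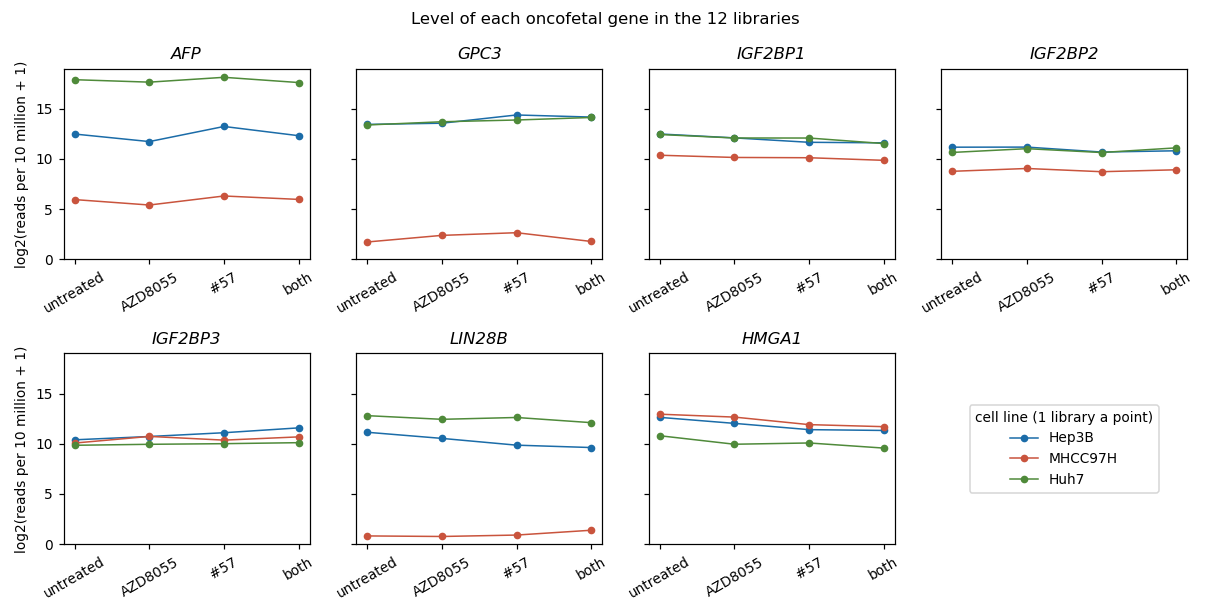
Level of the 7 oncofetal genes, as log2 of scaled reads plus 1 (vertical axis), by treatment (horizontal axis, #57 is compound #57 and both is the combination), with 1 point for each of the 12 libraries and lines joining the libraries of a cell line. The line means of AFP lie up to 11.91 log2 units apart, and GPC3 and LIN28B had at most 6 and 2 reads in MHCC97H. HMGA1 and IGF2BP1 fall from untreated to combination in every line.

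In Huh7, AFP had a log2 level of 17.89 in untreated cells, 17.65 with AZD8055, 18.13 with compound #57 and 17.61 with the combination. In Hep3B, the AFP levels were 12.48, 11.73, 13.23 and 12.31 in the same order. In MHCC97H, they were 5.95, 5.41, 6.31 and 5.96. AFP was the most abundant transcript of all genes by reads in each of the 4 Huh7 libraries, where it took 2.0% to 2.87% of the reads, and the order of the lines was the same under every treatment. The AFP ranges of the 3 lines did not overlap.

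GPC3 had log2 levels of 13.44, 13.56, 14.38 and 14.17 in Hep3B for untreated cells, AZD8055, compound #57 and the combination. In Huh7, they were 13.38, 13.70, 13.88 and 14.13, within the range of Hep3B except for the untreated library. The 4 MHCC97H libraries had 3, 6, 6 and 3 reads of GPC3, so that the proteoglycan gene was within a few reads of 0 there. LIN28B had 2420, 1819, 1456 and 976 reads in Hep3B, 11420, 6685, 8553 and 5131 in Huh7, and 1, 1, 1 and 2 in MHCC97H. The MHCC97H reads of LIN28B were below the 3 reads that a count of 0 allows.

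IGF2BP1 had log2 levels of 12.48, 12.09, 11.65 and 11.60 in Hep3B, of 12.43, 12.08, 12.08 and 11.53 in Huh7, and of 10.37, 10.14, 10.12 and 9.86 in MHCC97H. IGF2BP2 stood at 11.17, 11.18, 10.68 and 10.81 in Hep3B, at 10.64, 11.02, 10.64 and 11.10 in Huh7, and at 8.76, 9.05, 8.72 and 8.92 in MHCC97H. For both genes the Hep3B and Huh7 libraries overlapped and the MHCC97H libraries lay below them. IGF2BP3 stood at 10.40, 10.73, 11.10 and 11.59 in Hep3B, at 10.08, 10.74, 10.37 and 10.69 in MHCC97H, and at 9.85, 9.95, 10.01 and 10.11 in Huh7. IGF2BP3 was thus the RNA-binding protein gene with the smallest distance between lines (0.97).

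HMGA1 had log2 levels of 12.95, 12.66, 11.91 and 11.71 in MHCC97H, of 12.63, 12.03, 11.41 and 11.33 in Hep3B, and of 10.80, 9.96, 10.08 and 9.57 in Huh7. The chromatin gene therefore ran in the opposite order to AFP and LIN28B, with Huh7 at the bottom, and only the MHCC97H and Hep3B ranges overlapped.

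The lines were compared by limma on all 12 libraries, in a fit with terms for the treatment and the line. Here the 4 treatments of a line stand in for its spread and are not replicate cultures. The SE and p-values of the line differences therefore measure the spread between these libraries only, and exposure time goes with the line. Between MHCC97H and Hep3B, all 7 genes were called at a Benjamini-Hochberg adjusted p under 0.05, beside 67.8% of all genes, and the ranges of the 4 libraries were apart for 5 of the 7, beside 52.4% of all genes. Between MHCC97H and Huh7, all 7 were called, beside 70.2%, and the ranges were apart for 6, beside 55.5%. Between Hep3B and Huh7, 4 were called, beside 55.1%, and their ranges were apart, beside 39.1%. GPC3 and LIN28B had mean levels of 2.13 and 0.97 in MHCC97H, below 4.65, the lowest mean over the 12 libraries of any gene in the table. They are in the table only through Hep3B and Huh7, so their calls against MHCC97H are no evidence of their own. With shares this high among all genes, the counts alone say little about the oncofetal genes, and the size of the differences carries the description.

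AFP was lower in MHCC97H than in Huh7 by a log2 difference of -11.91 ± 0.15 (SE, limma adjusted p = 4.61e-11) and lower in Hep3B than in Huh7 by -5.38 ± 0.15 (5.11e-09). GPC3 did not pass the test between Hep3B and Huh7 (0.11 ± 0.19, limma adjusted p = 0.635). The difference of GPC3 between MHCC97H and Hep3B was -11.75 ± 0.19 on the log2 scale. That value depends on the 1 added before the logarithm, since MHCC97H had so few reads. LIN28B was lower in Hep3B than in Huh7 by -2.20 ± 0.28 (limma adjusted p = 1.42e-04). Summed over the libraries, LIN28B had 5 reads in MHCC97H, 6671 in Hep3B and 31789 in Huh7.

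HMGA1 was higher in Hep3B than in Huh7 by 1.75 ± 0.14 (limma adjusted p = 6.41e-06) and higher in MHCC97H than in Hep3B by 0.45 ± 0.14 (0.0138). IGF2BP1 was lower in MHCC97H than in Huh7 by -1.91 ± 0.12 (limma adjusted p = 2.76e-07), and IGF2BP2 by -1.99 ± 0.12 (3.07e-07). Neither differed by the test between Hep3B and Huh7, at -0.07 (0.623) and 0.11 (0.48). IGF2BP3 was higher in Hep3B than in Huh7 by 0.97 ± 0.16 (limma adjusted p = 6.40e-04) and lay between them in MHCC97H, lower than Hep3B by -0.49 (0.0208) and higher than Huh7 by 0.48 (0.0204). Both small IGF2BP3 differences and the HMGA1 difference between MHCC97H and Hep3B missed the threshold without the treatment term. The IGF2BP3 difference from Hep3B also missed it without the compound #57 libraries (0.111) or the combination libraries (0.092), and that from Huh7 without the AZD8055 libraries (0.0786).

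Levels of different genes were compared as scaled reads per kilobase of exon. AFP led in Huh7, with 75939 in untreated cells, 64117 with AZD8055, 89560 with compound #57 and 62388 with the combination. GPC3 led in all 4 Hep3B libraries, between 3379 and 6483. HMGA1 led in all 4 MHCC97H libraries, from 1436 to 3398, followed by the IGF2BP genes, with LIN28B last. The leading gene of each library was the same per length of the longest transcript, but the full order of the 7 genes held in 7 of the 12 libraries.

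Other genes of the same pathways followed the lines in part. In the AFP regulators and AFP locus, 13 of 19 genes were lower in MHCC97H than in Hep3B and 2 were higher (NFIB and CEBPB), beside 38.6% of all genes lower and 29.2% higher. The list median was -1.56 against -0.13 for all genes. Against Huh7, 16 were lower and 3 higher, beside 36.4% and 33.8% of all genes, with a median of -1.71 against -0.02. ALB, the plasma protein gene next to AFP on chromosome 4, had log2 levels of 7.16 to 9.52 in MHCC97H, 14.54 to 16.22 in Huh7 and 16.87 to 18.62 in Hep3B, so that Hep3B, not Huh7, had the most ALB. HNF4A, a liver transcription factor, had a level of 9.22 to 10.69 in MHCC97H.

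Of 28 other genes of the let-7 and LIN28 axis, 17 were lower in MHCC97H than in Hep3B and 7 were higher, beside the same 38.6% and 29.2% of all genes, with a median of -1.04 against -0.13. HMGA2, the paralogue of HMGA1 and a let-7 target, had log2 levels of 8.79 to 10.20 in MHCC97H, 9.13 to 12.06 in Hep3B and 10.90 to 12.67 in Huh7. Unlike HMGA1 it was lowest in MHCC97H, by -1.16 against Hep3B (limma adjusted p = 0.00921) and -2.41 against Huh7 (8.37e-05). TRIM71, another let-7 target of the embryo, ran from 3.12 to 4.17 in MHCC97H and from 10.58 to 11.85 in the other lines. Of 23 other oncofetal and liver progenitor genes, 13 were lower in MHCC97H than in Hep3B and 4 higher (CD44, SPP1, GOLM1 and PLAG1), beside those shares. The fetal growth factor gene IGF2 had 16 to 39 reads in the MHCC97H libraries and 32555 to 72795 in the others. H19, the non-coding RNA next to IGF2, did not run with it in Huh7, where it had 13 to 17 reads, against 80344 to 117521 in Hep3B.

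Both inhibitors together changed 3 of the 7 oncofetal genes across the cell lines. By limma, HMGA1 fell by 1.26 ± 0.16 on the log2 scale (SE, adjusted p = 0.0021) and IGF2BP1 by 0.76 ± 0.13 (0.00432), while IGF2BP3 rose by 0.69 ± 0.19 (0.0188). The share called among all genes was 36%, with 20.9% higher and 15.1% lower, so that 3 of 7 is close to the background. With each library centred on its median the split of all calls turned from 58.0% higher to 47.2% higher, and the 3 oncofetal genes kept their calls. The 3 cell lines serve as the replicates of this fit; since no source says that libraries came from separate cultures of a line, the p-values measure the spread between these libraries only. Without Huh7 the adjusted p values were 0.0555 for HMGA1, 0.0839 for IGF2BP1 and 0.0827 for IGF2BP3, and 11 genes of the table were called in all. Without Hep3B, IGF2BP3 was at 0.12, and with only the untreated and combination libraries it was at 0.0719.

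HMGA1 was lower with the combination in each line, from 6777 reads (6353 scaled) to 3178 (2574) in Hep3B, from 10300 (7908) to 4134 (3342) in MHCC97H, and from 2851 (1785) to 885 (761) in Huh7. The log2 differences were -1.30 (95% counting interval -1.36 to -1.24), -1.24 (-1.29 to -1.19) and -1.23 (-1.34 to -1.12), the narrowest range among the 5 genes with more than 6 reads in every line. IGF2BP1 was lower by -0.88 (-0.94 to -0.82) in Hep3B, -0.51 (-0.62 to -0.40) in MHCC97H and -0.90 (-0.96 to -0.85) in Huh7. IGF2BP3 was higher by 1.19 (1.10 to 1.28), 0.61 (0.52 to 0.71) and 0.26 (0.15 to 0.37) in the same lines, with the largest value in Hep3B. Among all genes, 25.6% were lower in all 3 lines with the combination and 33.4% were higher in all 3.

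**Figure D2:**
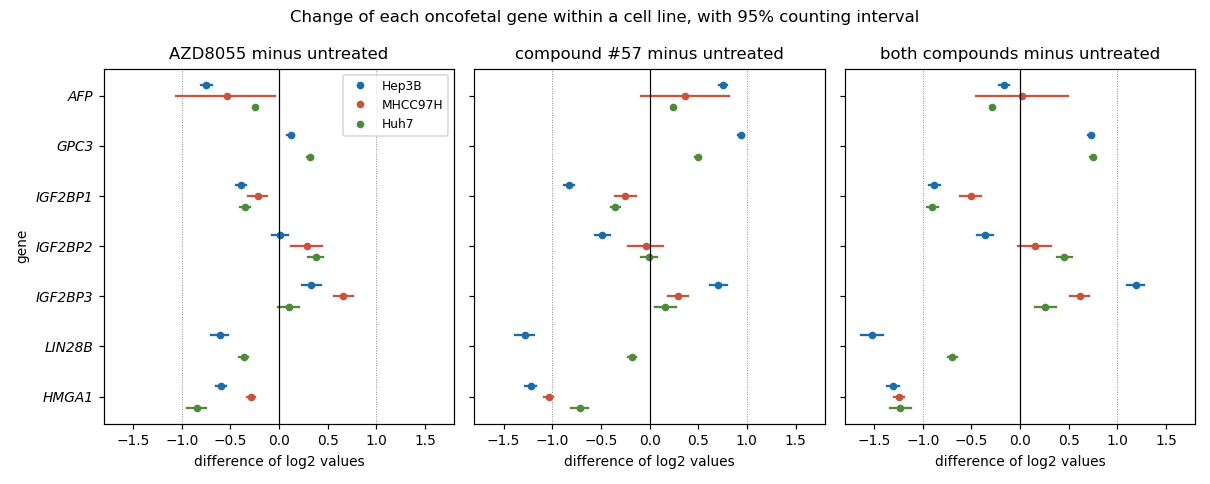
Difference of log2 levels between treated and untreated cells (horizontal axis) for each oncofetal gene (vertical axis), in 3 panels for AZD8055, compound #57 and both, with 1 point for each cell line, a bar for the 95% counting interval and dotted lines at a 2-fold change. GPC3 and LIN28B are not drawn for MHCC97H, where they had at most 6 reads; HMGA1 lies between -1.30 and -1.23 in the panel of both compounds.

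The other 4 genes did not pass the test for the combination. GPC3 had an estimate of 0.51 ± 0.22 (limma adjusted p = 0.0914), with 0.73 in Hep3B (0.70 to 0.76) and 0.75 in Huh7 (0.72 to 0.78), and 3 reads before and after in MHCC97H. LIN28B had -0.55 ± 0.33 (0.207), with -1.52 in Hep3B (-1.63 to -1.41) and -0.70 in Huh7 (-0.74 to -0.65), and 1 read against 2 in MHCC97H. Both estimates include the few reads of MHCC97H: without that line GPC3 was at 0.74 (limma adjusted p = 0.0307) and LIN28B at -1.11 (0.0188), and 5 of the 7 genes were called, as they were with voom on the whole reads. AFP had -0.14 ± 0.17 (0.541) and IGF2BP2 0.08 ± 0.14 (0.67). AFP was lower in Hep3B (-0.16) and Huh7 (-0.28), and in MHCC97H its 79 and 76 reads gave 0.02, which became -0.08 after centring. IGF2BP2 was higher in Huh7 by 0.46 (0.38 to 0.54) and lower in Hep3B by -0.36 (-0.44 to -0.28).

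With AZD8055 alone, limma called 2.96% of all genes and 0 of the 7 oncofetal genes; 3 of the 7 had an unadjusted p under 0.05, and voom called 0. HMGA1 was nearest, at -0.58 ± 0.16 (adjusted p = 0.0659), followed by AFP at -0.51 ± 0.17 (0.103). HMGA1 and IGF2BP1 were lower in each line, as were 25.7% of all genes, and IGF2BP3 was higher in each, as were 28.4%. AFP was lower by -0.75 (-0.81 to -0.69) in Hep3B, by -0.54 (-1.06 to -0.05) in MHCC97H and by -0.24 (-0.25 to -0.24) in Huh7. IGF2BP2 was higher by 0.28 in MHCC97H and 0.38 in Huh7 and stood at 0.01 in Hep3B, a value that became -0.04 after centring. The split of all calls was 74.6% higher, and 54.1% higher after centring.

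With compound #57 alone, limma called 0.00866% of all genes, which is 1 gene, and 0 of the 7; 4 of them had an unadjusted p under 0.05, and voom called 1, HMGA1 (adjusted p = 0.0383). HMGA1 was at -0.99 ± 0.16 (limma adjusted p = 0.0912) and was lower in each line, by -1.22 in Hep3B, -1.04 in MHCC97H and -0.72 in Huh7. Without MHCC97H it was at 0.0337. IGF2BP1 was at -0.48 ± 0.13 (0.115) and was also lower in each line, as were 19.7% of all genes. Higher in each line were AFP, at 0.45 ± 0.17 (0.182), and IGF2BP3, at 0.39 ± 0.19 (0.258), as were 30.6% of all genes. AFP had 5696 scaled reads untreated and 9616 with compound #57 in Hep3B, and 243081 and 286681 in Huh7, whereas AZD8055 alone gave 3387 and 205238. GPC3 was at 0.79 ± 0.22 (limma adjusted p = 0.113), with 0.94 (0.91 to 0.97) in Hep3B and 0.50 (0.47 to 0.52) in Huh7. That estimate includes MHCC97H, where GPC3 had 3 reads untreated and 6 with compound #57.

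The neighbour ALB gave the same order of libraries as AFP within each line for the single compounds. Its log2 level in Hep3B was 17.69 untreated, 16.87 with AZD8055 and 18.62 with compound #57. In Huh7, it was 15.31, 14.54 and 16.22, and in MHCC97H 8.25, 7.16 and 9.52. ALB did not pass the test either, at -0.89 for AZD8055 (limma adjusted p = 0.0618) and 1.04 for compound #57 (0.0912). The summed level of the 10 hepatocyte markers, ALB included, was 383514 scaled reads untreated, 238834 with AZD8055 and 621946 with compound #57 in Hep3B, and 192416, 138691 and 232562 in Huh7. In MHCC97H, the sum was 1783, 1950 and 3601, higher with AZD8055 where AFP and ALB were lower. The combination gave sums of 285150 for Hep3B, 4093 for MHCC97H and 214937 for Huh7, and in Huh7 the sum and ALB (16.06) were above untreated cells while AFP was below. ALB had the most reads of the 10 markers in each Hep3B library and in Huh7 with compound #57 and with the combination. The markers did not all move with their sum. With compound #57, APOB had a limma estimate of -0.56 (adjusted p = 0.265), while the other markers had estimates above 0. With AZD8055, the estimates of APOH, TTR, AHSG and HNF4A were above 0 and those of the other markers below 0. The TTR and AHSG estimates include few reads in MHCC97H. There TTR had 0 reads untreated, 3 with AZD8055 and 2 with compound #57, and AHSG had 13, 30 and 20. In Huh7, TTR had 3957 reads untreated and 2130 with AZD8055. The part of these markers in the AFP values was not tested.

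At least 2-fold changes within a line were counted without a test. With AZD8055, 0 of the 7 genes passed this size in any line. The share of all genes that did was 3.81% higher and 0.823% lower in Hep3B, 7.14% and 3.07% in MHCC97H, and 5.89% and 2.52% in Huh7. With compound #57, HMGA1 was at least 2-fold lower in Hep3B and MHCC97H and LIN28B in Hep3B, by -1.28 (-1.38 to -1.19). The shares of all genes lower were 3.75% in Hep3B, 0.84% in MHCC97H and 1.52% in Huh7, and the shares higher were 8.96%, 3.12% and 4.43%, with 0 of the 7 genes higher. With the combination, HMGA1 was at least 2-fold lower in all 3 lines, LIN28B in Hep3B, and IGF2BP3 was at least 2-fold higher in Hep3B. Among all genes, 6% were lower and 11.6% higher in Hep3B, 4.72% and 11.4% in MHCC97H, and 6.46% and 12% in Huh7.

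The combination was also set against each single compound; these comparisons share libraries with those above. Against AZD8055, limma called 0 genes in all (0%; 1673 had an unadjusted p under 0.05, and voom called 0), and 2 of the 7 had an unadjusted p under 0.05. HMGA1 was at -0.68 (adjusted p = 0.169) and IGF2BP1 at -0.44 (0.23), both lower in each line. Against compound #57, limma called 4.18% of all genes and 0 of the 7 (1 with an unadjusted p under 0.05, and 0 with voom). AFP was nearest, at -0.59 ± 0.17 (0.0794), with -0.92 in Hep3B, -0.34 in MHCC97H and -0.52 in Huh7.

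For the combined effect beyond the sum of the single effects, limma called 0 genes (0%; 178 had an unadjusted p under 0.05, of which 0 were among the 7, and voom called 0). On the log2 scale, the sum of both single changes of HMGA1 was -1.82 in Hep3B against -1.30 for the combination, -1.33 against -1.24 in MHCC97H, and -1.57 against -1.23 in Huh7. The sum was thus larger than the combined fall in each line, by 0.52, 0.08 and 0.34, with an estimate across lines of 0.31 ± 0.22 (limma adjusted p = 1.0). LIN28B gave a sum of -1.89 against -1.52 in Hep3B and of -0.55 against -0.70 in Huh7. IGF2BP3 gave 1.04 against 1.19 in Hep3B, 0.95 against 0.61 in MHCC97H and 0.26 against 0.26 in Huh7.

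The opposite changes of IGF2BP1 and IGF2BP3 went with a different make-up of IGF2BP mRNA in every line. Per kilobase of exon, IGF2BP1 made up 50.2% of the sum of the 3 genes in untreated Hep3B, 41.8% with AZD8055, 37.1% with compound #57 and 31.6% with the combination. In MHCC97H, its share was 39.7%, 28.2%, 33.0% and 25.3%, and in Huh7 58.4%, 47.1%, 51.7% and 36.2%. IGF2BP1 thus had its largest share in the untreated library and its smallest with both compounds in each line.

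The share of IGF2BP3 went from 13.3% in untreated Hep3B to 35.3% with the combination, from 36.7% to 50.9% in MHCC97H, and from 11% to 15.3% in Huh7. In Huh7, IGF2BP2 had 30.6% untreated and 48.5% with the combination, whereas its share was 36.4% and 33.0% in Hep3B and 23.6% and 23.8% in MHCC97H. Per length of the longest transcript the shares were other, with IGF2BP1 at 43.3% and 23.7% in Hep3B, but IGF2BP1 was again lower and IGF2BP3 higher in each line. The share of IGF2BP2 in MHCC97H turned, with 20.1% untreated and 19% with the combination. The summed IGF2BP level was 1184 scaled reads per kilobase untreated and 1019 with the combination in Hep3B, 345 and 380 in MHCC97H, and 982 and 848 in Huh7.

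**Figure D3:**
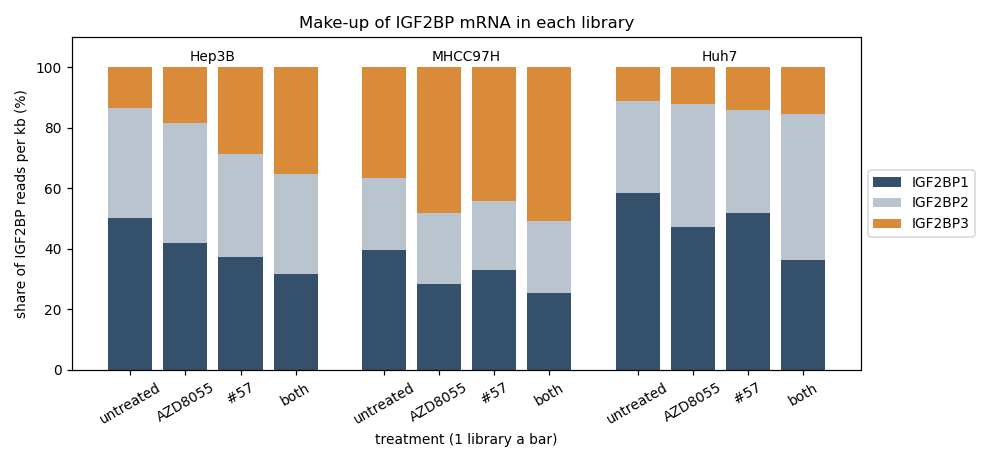
Share of IGF2BP1, IGF2BP2 and IGF2BP3 in their summed scaled reads per kilobase of exon (vertical axis, in percent), with 1 bar for each of the 12 libraries grouped by cell line (horizontal axis, #57 is compound #57 and both is the combination). The share of IGF2BP1 falls from 50.2% to 31.6% in Hep3B, from 39.7% to 25.3% in MHCC97H and from 58.4% to 36.2% in Huh7.

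Whether a compound acted differently on a gene in different lines was tested with a limma fit that leaves 3 residual degrees of freedom. For any difference in the compound #57 effect between the 3 lines, 4.9% of all genes were called and 1 of the 7, LIN28B (limma adjusted p = 0.0312). For AZD8055, 5.03% of all genes were called and 0 of the 7 (1 with an unadjusted p under 0.05, and 0 with voom). In the contrasts of 2 lines, LIN28B was called for compound #57 between MHCC97H and Hep3B (1.45 ± 0.24, limma adjusted p = 0.0134), beside 7.54% of all genes. That value is fitted over all 4 treatments, with 1 or 2 reads in each MHCC97H library and 976 to 2420 in Hep3B, so that it depends on the 1 added and shows no response of MHCC97H. With voom it was not called (0.0581). Between the lines in which LIN28B had reads, Hep3B and Huh7, the difference was -0.84 ± 0.24 (0.169), with 0.927% of all genes called. IGF2BP3 was the next, with -0.66 ± 0.17 for compound #57 between MHCC97H and Hep3B (0.0519). In the other contrasts 0 of the 7 were called, beside 0.883% of all genes for compound #57 between MHCC97H and Huh7 and 4.64%, 6.36% and 0.0693% for AZD8055 between MHCC97H and Hep3B, MHCC97H and Huh7, and Hep3B and Huh7. In the 5 contrasts of 2 lines without a call, between 1 and 4 of the 7 had an unadjusted p under 0.05, and voom called 0.

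Beside the oncofetal genes, other genes of the let-7 and LIN28 axis moved both ways with the combination. Of 28 genes, 4 rose and 7 fell by limma, beside 20.9% and 15.1% of all genes, and the list median was 0.01 against 0.09 for all genes. The 4 that rose were IRS2 (2.42, adjusted p = 0.00301) and INSR (1.5, 0.00191), which act in insulin signalling, the TGF-beta receptor gene TGFBR1 (0.59, 0.0136), and ZCCHC11 (0.45, 0.0159), whose product adds uridines to let-7 precursors together with LIN28. Among those that fell were MYCN (-2.34, 0.00988), the phosphatase gene CDC25A (-1.94, 0.00846), HMGA2 (-1.67, 0.00973) and CDK6 (-0.73, 0.0496). E2F5 (-0.69), E2F6 (-0.57) and EZH2 (-0.53) fell as well. The MYCN estimate includes few reads in MHCC97H, 9 untreated and 3 with the combination. HMGA2 went from 4557 to 689 reads in Hep3B, from 10371 to 2221 in Huh7 and from 954 to 723 in MHCC97H, lower in every line, as HMGA1 was.

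**Figure D4:**
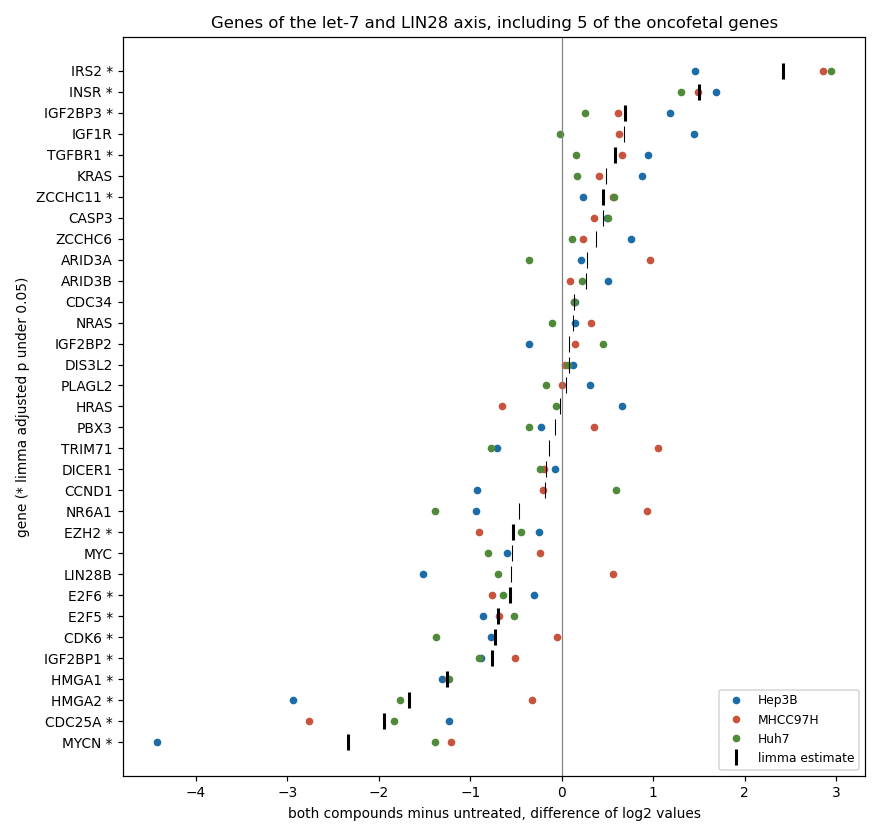
Difference of log2 levels between both compounds and untreated cells (horizontal axis) for each gene of the let-7 and LIN28 axis, oncofetal genes included (vertical axis, ordered by the limma estimate), with 1 point for each cell line and a black bar for the estimate. An asterisk marks an adjusted p under 0.05; IRS2 is at the top with 2.42 and MYCN at the bottom with -2.34, and HMGA1, IGF2BP1 and IGF2BP3 are the oncofetal genes with an asterisk.

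HMGA2 also had drug effects that differed between the lines. For compound #57, its change in MHCC97H differed from that in Hep3B by 1.52 ± 0.17 on the log2 scale (limma adjusted p = 0.00351), and that in Hep3B from Huh7 by -1.06 ± 0.17 (0.0385). In Hep3B, its log2 level was 12.06 in untreated cells and 9.66 with compound #57. In MHCC97H, the same 2 levels were 9.52 and 8.79, and in Huh7 12.67 and 11.45. For AZD8055, its change in MHCC97H differed from that in Hep3B by 1.09 ± 0.17 (limma adjusted p = 0.0178) and from that in Huh7 by 0.98 ± 0.17 (0.0208). Between Hep3B and Huh7 the AZD8055 difference was -0.11 (0.862). With AZD8055 alone, HMGA2 went from 954 to 1672 reads in MHCC97H, from 4557 to 3547 in Hep3B and from 10371 to 6243 in Huh7.

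Of the 19 genes that regulate AFP or lie at its locus, 6 rose with the combination and 2 fell, beside 36% of all genes called, with a median of 0.12 against 0.09 for all genes. The nuclear receptor gene NR5A2 (1.84, limma adjusted p = 0.00452) and ONECUT1 (1.69, 0.00179) had the highest values, and GATA6 (1.41), HNF4A (0.84) and FOXA1 (0.62) also rose. Both highest values include few reads in MHCC97H, where NR5A2 had 1 untreated and 13 with the combination, and ONECUT1 8 and 28. CEBPA (-0.42, 0.0237) was among those that fell. AFP itself did not pass the test in this comparison.

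Among 21 genes of glypicans and heparan sulfate, 6 rose and 3 fell with the combination, beside 36% of all genes called, with a median of 0.39 against 0.09 for all genes. The glypican gene GPC6 rose by 1.59 (limma adjusted p = 0.00169), from 1613 to 4866 reads in Hep3B, from 256 to 877 in MHCC97H and from 1156 to 2450 in Huh7. GPC4 was called at 1.97 (0.0341), with 137 and 780 reads in Hep3B, 29 and 273 in Huh7 and 0 in MHCC97H. SDC4 (1.24), SDC3 (0.97), NDST1 (0.76) and SULF2 (0.73) rose too, and SDC1 (-1.16), EXTL2 (-0.95) and EXTL3 (-0.55) fell. The SULF2 estimate includes Hep3B, with 0 reads untreated and 1 with the combination. GPC3 had 0.51 and missed the threshold. The summed level of the 7 mesenchymal markers was also higher with the combination in each line, at 25114 and 62262 scaled reads in Hep3B, 82944 and 133509 in MHCC97H, and 66424 and 104245 in Huh7. By limma 5 of the 7 rose, beside 20.9% of all genes. Some of these values include few reads, with 3 and 13 for SPARC in Hep3B and 13 and 29 for COL1A1 in MHCC97H. FN1 had the most reads of the 7 in each of these libraries. The part of these markers in the glypican values was not tested.

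Of the genes that place, remove or read m6A, 1 of 21 was higher (RBM15B) and 3 were lower with the combination (HNRNPA2B1, -0.69; ALKBH5, -0.63; ELAVL1, -0.42), with a median of -0.08 against 0.09 for all genes. For these and the next lists, the shares of all genes were 20.9% higher and 15.1% lower. Of 12 RNAs known to be bound by IGF2BPs, the non-coding H19 included, 2 rose, among them BTRC (0.43), and 2 fell (HMGA2, and MKI67 with -1.20), with a median of 0.15. In the HMG family beside HMGA1, 1 of 8 rose (HMGN4, 0.54) and 2 fell (HMGA2, and HMGB1 with -0.73). Of 23 other oncofetal and liver progenitor genes, 4 rose, among them SPINK1 (1.97) and CD24 (1.02), and 2 fell, LGR5 (-1.59) and SOX9 (-0.88). The CD24 and LGR5 estimates include few reads in MHCC97H, where CD24 had 6 untreated and 24 with the combination, and LGR5 10 and 1.

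With AZD8055 alone, limma called 2 genes of the let-7 and LIN28 axis (IRS2 and INSR, higher) and GPC6 among the glypican genes (higher, 1.05, adjusted p = 0.0304). The other 5 pathway and oncofetal lists had 0 calls, with 2 to 5 genes each at an unadjusted p under 0.05, beside 27.4% of all genes. With compound #57 alone, 0 listed genes were called by limma, while 9 of the 19 AFP genes and 7 of the 28 genes of the let-7 axis had an unadjusted p under 0.05, beside 21.7% of all genes.

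The genes with the pattern most like each oncofetal gene were taken by Pearson's r over the 12 libraries, which share the 3 cell lines and are therefore no independent points. For GPC3 they were ZFP30, FAM169A and IGF2 (r = 0.998 for each), for AFP GYG2, PKDCC and GOPC (0.995 to 0.991), and for LIN28B WASF3, ZNF280B and LIN7A (0.997 to 0.996). For IGF2BP1, IGF2BP2 and HMGA1, the nearest were MRPL40 (0.988), YBX3 (0.991) and ZNF668 (0.978), and for IGF2BP3 PARP3 (0.952).

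After the mean of each cell line had been subtracted, which leaves the differences between treatments, other genes were nearest. For HMGA1 they were E2F5, SETD1A and DCAF15 (r = 0.951 to 0.932), and for IGF2BP1 the RNA-binding protein genes HNRNPM and YBX1 and the folate carrier gene SLC19A1 (0.979 to 0.972). IGF2BP3 was nearest to DUSP10 (0.969), LIN28B to TGOLN2 (0.952), GPC3 to ZNF10 (0.946) and IGF2BP2 to TNRC6C-AS1 (0.974). For LIN28B and GPC3 these values include the MHCC97H libraries, with at most 2 and 6 reads, and so also counting error.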

How the data were processed

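The expression of the oncofetal genes was taken from 1 table of 12 libraries, grouped by the cell line and treatment in the labels. The authors prepared polyA+ libraries (a stranded kit per the labels and TruSeq in the methods), mapped reads to hg38, and log2 values for each gene were deposited; aligner, read counting and gene filter are not given in the sources used here. With 0.001 taken off every deposited log2 value, all values were whole reads within 0.001 after scaling to 10000000 reads per library plus 1, and these reads were used for counts and intervals. The table holds genes with a mean log2 value of at least 4.65; 18 genes bore names turned into dates and 3 symbols stood on 2 lines each.

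limma 3.58.1 (lmFit, eBayes with trend) was fitted to all 11548 genes and 12 libraries, in a fit with terms for treatment and line. Treated and untreated libraries were paired by their cell line. A gene was called where the p-value after Benjamini-Hochberg adjustment was below 0.05. Drug effects by line were fitted with additive drugs. Within a line a change of at least 2-fold was counted, with no p-value. Exon lengths (10558 genes, 91.4%) came from GENCODE 44. Named are the 7 genes, list genes that were called or among the 4 largest, and the nearest genes by r. Some genes that this rule names are not reported here. The members, the lists and the tests were chosen with earlier results of these data known. Alternatives were 10 added instead of 1, a filter that kept 75% of genes by mean level, median centring, voom on whole reads, dropped terms, and each line or treatment left out. The calculations were tested on simulated data. R 4.3.3 and Python 3.11.15 were used.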

Additional observations from a re-analysis of the deposited data

Results flagged for a closer look

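LIN28B passed the test for a difference between the cell lines in the response to compound #57, but the call rests on a line with almost no reads of the gene. The limma adjusted p for any difference between the 3 lines was 0.0312, and the difference between MHCC97H and Hep3B was 1.45 on the log2 scale (adjusted p = 0.0134). In Hep3B, the gene had 2420 reads untreated and 1456 with compound #57, a change of -1.28, and in Huh7 11420 and 8553, a change of -0.18. These changes are of scaled reads, since the depths differ: 10667343 and 15629071 reads in Hep3B, 15968317 and 13564110 in Huh7. In MHCC97H it had 1 read in each of these libraries, with a counting interval of -6.10 to 6.49 around a change of 0.09, so that no change of LIN28B can be seen there at this depth. With voom on the whole reads, which weights low counts down, the same difference was 1.66 with an adjusted p of 0.0581. Between Hep3B and Huh7, the lines with reads, it was -0.84 with a limma adjusted p of 0.169, so that no difference between lines is shown.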

How the results depend on the processing

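The cause of the changes below was not tested. Counts are of genes called by limma over the table. Without the cell line term (no replicate block), 0 genes were called for AZD8055, compound #57 and the combination against untreated and for the combination against compound #57, and 0 of the 7 oncofetal genes for the combination. With only the libraries compared, the counts were 2, 0, 1889 and 265 against 342, 1, 4154 and 483 in the fit of all libraries. With 1 line left out, they ran from 0 (without Huh7) to 109 (without MHCC97H) for AZD8055, from 0 (without Huh7) to 778 (without MHCC97H) for compound #57, from 11 (without Huh7) to 3778 (without MHCC97H) for the combination, from 0 (without Huh7) to 331 (without MHCC97H) for the combination against compound #57, and from 0 to 3 for the combination against AZD8055. The oncofetal genes called for the combination ran from 0 (without Huh7) to 5 (without MHCC97H), and for compound #57 from 0 to 1 (HMGA1, without MHCC97H). With voom, 5 oncofetal genes were called for the combination and 1 for compound #57, 90 genes in all for compound #57 and 54 for its difference between MHCC97H and Huh7. For that difference between MHCC97H and Hep3B, 2 oncofetal genes were called with 10 added and with centring, IGF2BP3 being the second, and 0 with voom, which also gave 0 over all 3 lines. For the AZD8055 difference between Hep3B and Huh7, 15 genes were called with 10 added, 3 with the filter and 1 with voom, against 8. The order of the genes per length held in 7 libraries with the longest transcript, against 12. Of 728 values of single oncofetal genes under an alternative, 705 kept their side of the threshold, 15 lost a call and 8 gained one, and 0 reversed. Of 105 changes within a line, centring shifted a value by at most 0.109 and turned the sign of 4, all within 0.09 of 0, and 10 added turned 0; 8 were past 2-fold under each setting. With 1 to 6 reads, GPC3 and LIN28B carry no measurable change in MHCC97H.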
